A study of Mus musculus with 4 samples.

Results

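The cardiac sarcomere genes described here are Tnnt2, Tnni1, Tnni3, Tnnc1, Myl4, Myl7, Myh6, Myh7, Actc1 and Actn2. Their probes were found through the RefSeq accession that the array gives for each probe, and all 10 genes had at least 1. Their probes were 11 of the array's 55681 distinct probes, and the genes were 10 of 20654 with a symbol and a usable probe. The cells came from the mouse embryonic stem cell line EB5 carrying an RFP (red fluorescent protein) reporter of Hoxb6, after 6 days of differentiation on OP9 feeder cells, a bone marrow stromal line. Cells were sorted as Flk-1+Hoxb6-RFP+ or as Flk-1+Hoxb6-RFP-, here called RFP-positive and RFP-negative, so that both fractions carry the reporter construct and the surface receptor Flk-1. There were 2 one-colour Agilent arrays per fraction. The labels do not say whether the 2 samples of a fraction came from separate cultures, and p-values then measure only the spread between these samples, which may be technical.

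The sarcomere is the contractile unit of striated muscle, in which myosin thick filaments pull on actin thin filaments that are anchored at the Z-disc. Calcium switches contraction on through troponin, a complex of a calcium sensor, an inhibitor and a tropomyosin-binding subunit that sits on the thin filament. Heart muscle arises from Flk-1-positive mesoderm in the embryo, and several of these genes are among the earliest markers of the cardiac crescent and heart tube. Some of them, such as Tnni1, Tnnc1, Myl4, Myh7 and Actc1, are also used by embryonic or slow skeletal muscle.

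A level below is the log2 of a probe's signal over the 75th percentile of its array. Errors are SDs (n = 2 arrays), and a difference is the RFP-positive mean minus the RFP-negative mean. Values of different probes cannot be ranked against each other, because probes differ in brightness at equal RNA. Between 55.2% and 59.3% of spots per array were marked by the scanner as well above background, and 0 were saturated. The receptor gene behind the sort, Kdr, was measured on all 4 arrays by both of its probes. The probe used for the gene was at 4.41 and 4.36 in RFP-positive and 4.18 and 4.33 in RFP-negative cells. Its other probe was at 3.83 and 4.44 in RFP-positive and 3.59 and 3.69 in RFP-negative cells. The probe for Hoxb6 passed the scanner's mark on none of the arrays. RFP-positive replicate 2 stood apart from the rest, with correlations of 0.950 to 0.964 with the other arrays across the genes tested, against 0.974 to 0.982 among those 3. In such bulk RNA, fewer cells that use a gene and less RNA per cell cannot be told apart.

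Of the 10 genes, 8 were well above background on all 4 arrays, and Tnni3 and Actn2 were on none. With limma and Benjamini-Hochberg adjustment over the 13431 genes tested, 0 of the 8 passed an adjusted p of 0.05, as did 0 of all genes (0%). At an unadjusted p under 0.05 there were 0 of the 8, against 6.49% of all genes tested (2.77% higher and 3.72% lower). By order alone, 2 of the 8 had both RFP-positive arrays above both RFP-negative arrays, namely Tnnt2 and Myl4, and 1, Tnnc1, had both below. Over all genes tested the same held for 18.8% in the higher and 21.6% in the lower direction, and among genes measured on all arrays for 18.9% and 20.4%. In either direction it held for 3 of the 8 and for 40.3% of all genes, so that these counts were near the background. None of the 8 had every pair of arrays at least 2-fold apart, against 0.469% of all genes in the higher direction, 0.893% in the lower and 1.36% in either. The median difference of the 8 genes was −0.37, with 3 above and 5 below 0, beside a median of −0.05 over all genes tested. That median was 0.17 without RFP-negative replicate 2 and 0.16 without RFP-positive replicate 2.

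**Figure D1:**
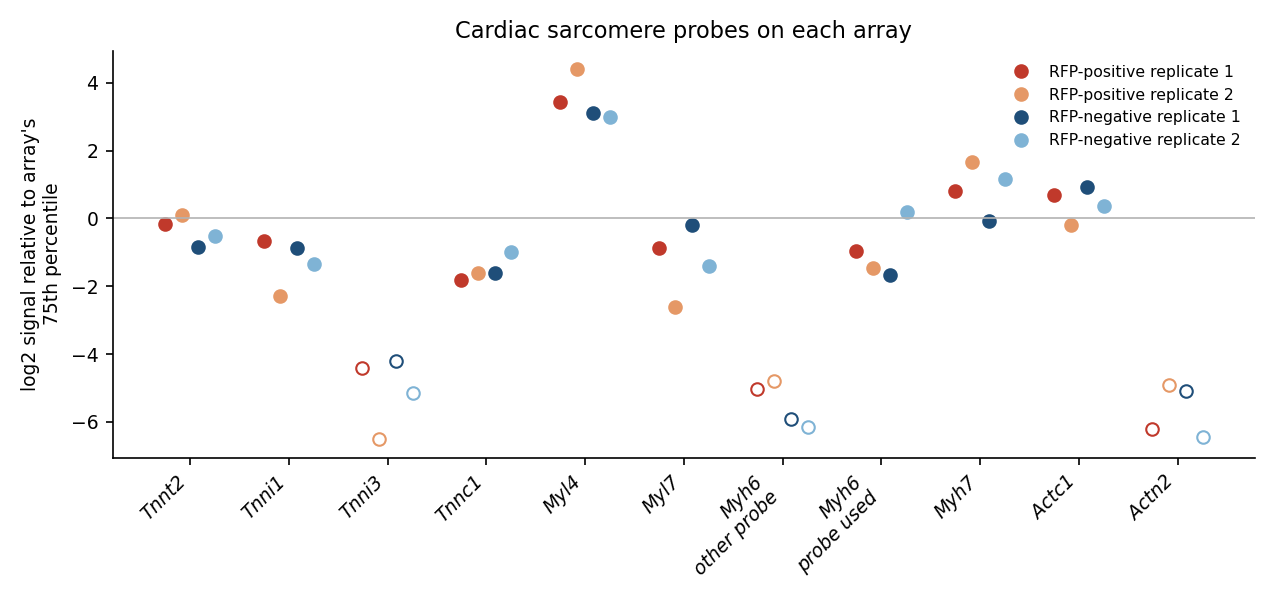
Log2 signal relative to the array's 75th percentile (vertical axis) of each of the 11 probes on the 4 arrays, with RFP-positive arrays left of RFP-negative arrays. Filled points were well above background and open points were not. For Tnnt2 and Myl4 both RFP-positive points lie above both RFP-negative points, whereas Tnni3, Actn2 and 1 of the 2 Myh6 probes have open points only.

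Among the troponins, Tnnt2, the tropomyosin-binding troponin T of the heart, lies on chromosome 1 (chr1:135836315-135852268, GRCm38). It was at −0.17 and 0.11 in RFP-positive replicates 1 and 2, against −0.85 and −0.51 in RFP-negative replicates 1 and 2. The fractions did not overlap, with a gap of 0.34 between their nearest arrays. The means were −0.03 ± 0.20 in RFP-positive and −0.68 ± 0.24 in RFP-negative cells (n = 2 each), and the RFP-positive mean was 1.57-fold that of RFP-negative cells (difference 0.65, SE 0.26, limma adjusted p 0.745). The limma interval (95%) of that difference ran from −0.03 to 1.34. Because its arrays did not overlap, the promoter of Tnnt2 is shown, on the plus strand (chr1:135836084-135836383, GRCm38.p6, from RefSeq). It runs from 250 bases before to 50 after the first of its starts with a promoter window. That start is not the first base of the span given above. Its capitals mark the one GATA motif, which reads on the opposite strand.
Tnnt2: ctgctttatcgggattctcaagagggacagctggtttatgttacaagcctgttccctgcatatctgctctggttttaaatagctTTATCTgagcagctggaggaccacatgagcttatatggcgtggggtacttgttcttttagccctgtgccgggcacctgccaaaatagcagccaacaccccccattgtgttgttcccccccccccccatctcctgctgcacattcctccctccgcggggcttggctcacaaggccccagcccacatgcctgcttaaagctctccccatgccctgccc

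Tnnc1, the calcium-binding subunit (chr14:31208312-31211729), was at −1.81 and −1.62 in RFP-positive cells and −1.60 and −0.99 in RFP-negative cells. Both RFP-positive arrays lay below both RFP-negative arrays, but the nearest pair was only 0.02 apart. Its means were −1.71 ± 0.13 in RFP-positive and −1.29 ± 0.43 in RFP-negative cells (n = 2 each), and the difference was −0.42 (SE 0.30, limma adjusted p 0.762). Under a scaling to the median, or to the 75th percentile over probes measured on every array, the nearest pair overlapped.

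Tnni1 encodes the slow skeletal form of the inhibitory subunit, which is the form used by the embryonic heart (chr1:135783033-135810989). It was at −0.66 and −2.28 in RFP-positive cells and −0.88 and −1.36 in RFP-negative cells. The RFP-positive arrays thus held both the highest and the lowest value, 1.62 apart on the log2 scale. A gap of that size between the RFP-positive arrays was larger than that of 95.7% of genes tested. The difference of −0.35 (SE 0.59, limma adjusted p 0.872) turned to 0.46 without RFP-positive replicate 2. Tnni3, the inhibitory subunit that replaces Tnni1 in the later heart (chr7:4518305-4522718), was at −4.42 and −6.50 in RFP-positive and −4.22 and −5.15 in RFP-negative cells. None of these was well above background, so no difference is given.

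Among the myosin light chains, Myl4 had the largest difference of the 8 genes in the higher direction. Myl4 is the essential light chain of the atrium and of embryonic striated muscle (chr11:104546017-104587215). It was at 3.45 and 4.40 in RFP-positive cells and 3.12 and 2.98 in RFP-negative cells. The RFP-negative arrays lay within 0.14 of each other, and both RFP-positive arrays were above them by at least 0.33. Means were 3.92 ± 0.67 in RFP-positive and 3.05 ± 0.10 in RFP-negative cells (n = 2 each), 1.83-fold on the linear scale (difference 0.88, SE 0.38, limma adjusted p 0.745). The interval ran from −0.12 to 1.87. Much of the difference rested on RFP-positive replicate 2, without which it was 0.40, while without RFP-positive replicate 1 it was 1.35 (limma adjusted p 0.137).

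Myl7, the regulatory light chain of the atrium and early heart tube (chr11:5896637-5898782), was at −0.87 and −2.62 in RFP-positive cells and −0.20 and −1.41 in RFP-negative cells. The fractions overlapped, and in each the array numbered 1 was the higher. The difference was −0.94 (SE 0.72, limma adjusted p 0.765), with an interval from −2.82 to 0.95, the widest of the 8 genes. It was −0.06 without RFP-positive replicate 2 and −1.81 without RFP-positive replicate 1. The promoters of both light chains are shown because the 2 genes lay at opposite ends of the differences. That of Myl4 is on the plus strand (chr11:104550413-104550712), inside the span given for the gene, with its NK2 motif in capitals. That of Myl7 is on the minus strand (chr11:5898733-5899032) with its CArG box, the binding motif of serum response factor, in capitals.
Myl4: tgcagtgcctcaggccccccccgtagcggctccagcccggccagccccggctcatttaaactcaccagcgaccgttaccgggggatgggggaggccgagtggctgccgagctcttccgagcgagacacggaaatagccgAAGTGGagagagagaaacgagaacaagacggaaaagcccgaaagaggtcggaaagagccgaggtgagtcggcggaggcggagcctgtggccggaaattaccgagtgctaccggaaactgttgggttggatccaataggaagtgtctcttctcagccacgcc
Myl7: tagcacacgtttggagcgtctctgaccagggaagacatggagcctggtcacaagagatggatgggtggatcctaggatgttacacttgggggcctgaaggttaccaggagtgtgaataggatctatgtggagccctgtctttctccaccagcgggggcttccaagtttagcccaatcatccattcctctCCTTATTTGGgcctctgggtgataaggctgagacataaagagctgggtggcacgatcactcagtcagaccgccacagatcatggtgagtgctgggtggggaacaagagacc

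The myosin heavy chains Myh6 (chr14:54941921-54968017) and Myh7 (chr14:54970684-54994626) lie side by side. Myh6, the alpha chain, was at −0.96 and −1.47 in RFP-positive cells and −1.66 and 0.18 in RFP-negative cells. Here the RFP-negative arrays held both the lowest and the highest value. They were 1.85 apart, more than for 98.9% of genes tested. The difference of −0.47 (SE 0.66, limma adjusted p 0.842) was 0.45 without RFP-negative replicate 2 and −1.40 without RFP-negative replicate 1. A further Myh6 probe with the same accession stayed below the scanner's mark on all arrays, at −5.02 and −4.78 in RFP-positive and −5.93 and −6.15 in RFP-negative cells. Averaging both probes gave a difference of 0.33.

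Myh7, the beta chain, which predominates before birth in the mouse ventricle and in slow skeletal muscle, was at 0.82 and 1.66 in RFP-positive cells and −0.08 and 1.17 in RFP-negative cells. The fractions overlapped, with the array numbered 2 the higher in each. The means were 1.24 ± 0.59 in RFP-positive and 0.55 ± 0.88 in RFP-negative cells (n = 2 each), and the difference was 0.69 (SE 0.53, limma adjusted p 0.765). Without RFP-negative replicate 1 it was 0.07 and without RFP-negative replicate 2 it was 1.31. Within arrays, 4 log2 ratios between these genes were read, without a test. The ratio of Myh6 to Myh7 differed between the fractions by −1.17, without overlap. That of Tnnt2 to Tnnc1 differed by 1.07, and its lack of overlap only follows from the orders of both genes given above. The ratios of Myl4 to Myl7 and of Tnnt2 to Tnni1 differed by 1.81 and 1.01 and overlapped. No share without overlap over other gene pairs was computed. The ratio to Myh7 rests on the brighter of the Myh6 probes.

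Actc1, the cardiac alpha-actin of the thin filament and the main sarcomeric actin of embryonic muscle (chr2:114047282-114052875), was at 0.69 and −0.19 in RFP-positive cells and 0.93 and 0.35 in RFP-negative cells. The fractions overlapped and the difference was −0.39 (SE 0.41, limma adjusted p 0.803). It was 0.05 without RFP-positive replicate 2. Actn2, the alpha-actinin that anchors thin filaments at the Z-disc (chr13:12269426-12340732), was at −6.20 and −4.90 in RFP-positive and −5.08 and −6.44 in RFP-negative cells, none of them well above background. The Actc1 promoter on the minus strand (chr2:114052826-114053125), with its CArG box in capitals, is set beside that of Myl7, the other gene with this motif.
Actc1: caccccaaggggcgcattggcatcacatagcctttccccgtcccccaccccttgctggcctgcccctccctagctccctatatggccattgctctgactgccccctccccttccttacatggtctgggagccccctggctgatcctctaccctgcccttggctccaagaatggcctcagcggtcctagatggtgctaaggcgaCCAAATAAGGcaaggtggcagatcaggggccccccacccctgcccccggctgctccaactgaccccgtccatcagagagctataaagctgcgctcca

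**Figure D2:**
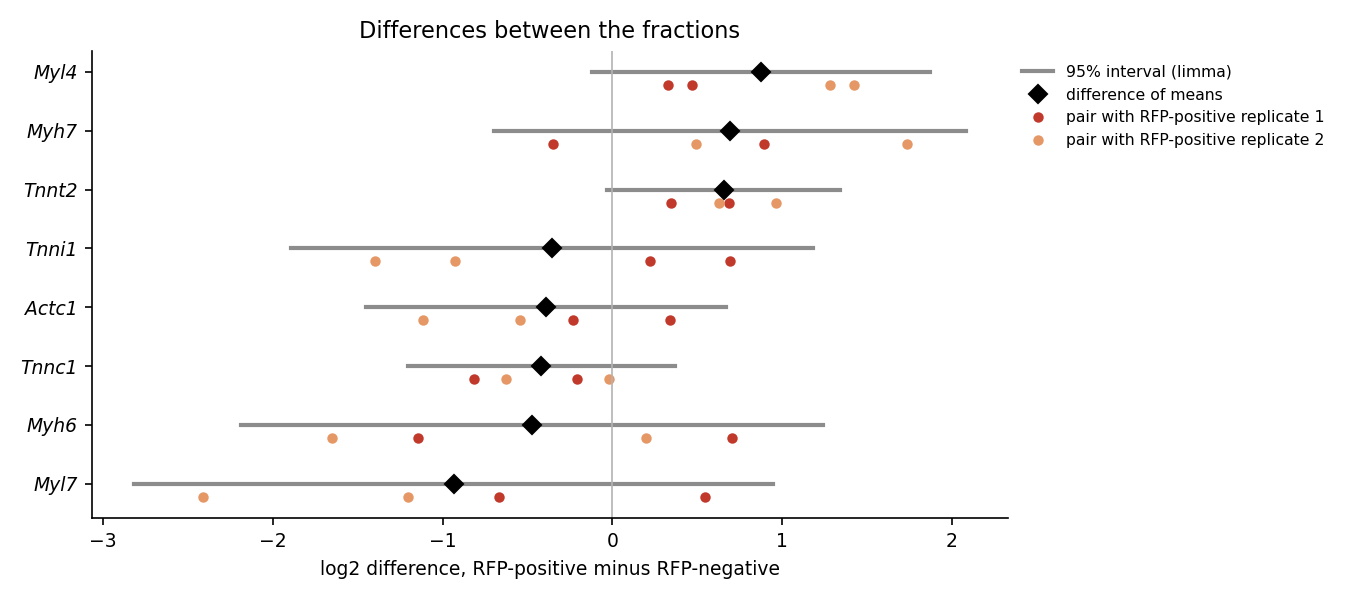
Difference between the fractions (horizontal axis, log2, RFP-positive minus RFP-negative) for the 8 genes measured on all arrays. Diamonds are differences of means, bars the limma intervals (95%), and small points the 4 differences between single arrays. Every interval includes 0, and for Tnni1 the pairs with RFP-positive replicate 1 lie above 0 and those with replicate 2 below.

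The 6 motifs searched on both strands of these windows were the GATA motif AGATAA, the T-box motif AGGTGT, the NK2 motif AAGTGG, the E-box CANNTG, the CArG box and the MEF2 motif. All 10 genes had a promoter window in RefSeq, some with more than 1 start. CArG boxes stood in the windows of Actc1 and Myl7, 47 and 61 bases before the start, against 1.81% of all 27025 genes with a window. The NK2 motif stood in those of Myl4, Myh6 and Myh7 (18.9% of genes), the T-box motif in those of Tnni1 and Tnni3 (15.7%) and the GATA motif in that of Tnnt2 (12.7%). An E-box was found for 9 of the 10 genes, all but Myl4 (75% of genes), and the MEF2 motif for 0 (3.7%). In these 10 genes' windows no match overlapped a match of another motif. A match describes these letters and is not a site or a cause.

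The 8 genes did not share one pattern over the 4 arrays. RFP-positive replicate 2 held the highest of the 4 values for Tnnt2, Myl4 and Myh7 and the lowest for Tnni1, Myl7 and Actc1. That is 6 of 8 genes, and over all genes tested this array held the highest or lowest value for 70.5%. Actc1 and Myl7 had the same order of arrays, with RFP-negative replicate 1 highest, then RFP-positive replicate 1, RFP-negative replicate 2 and RFP-positive replicate 2. The 2 arrays of a fraction differed by a median of 0.86 in RFP-positive and 0.59 in RFP-negative cells over the 8 genes. For the 7941 tested genes whose mean lay in the same range of levels, −1.50 to 3.48, the medians were 0.36 in RFP-positive and 0.24 in RFP-negative cells.

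**Figure D3:**
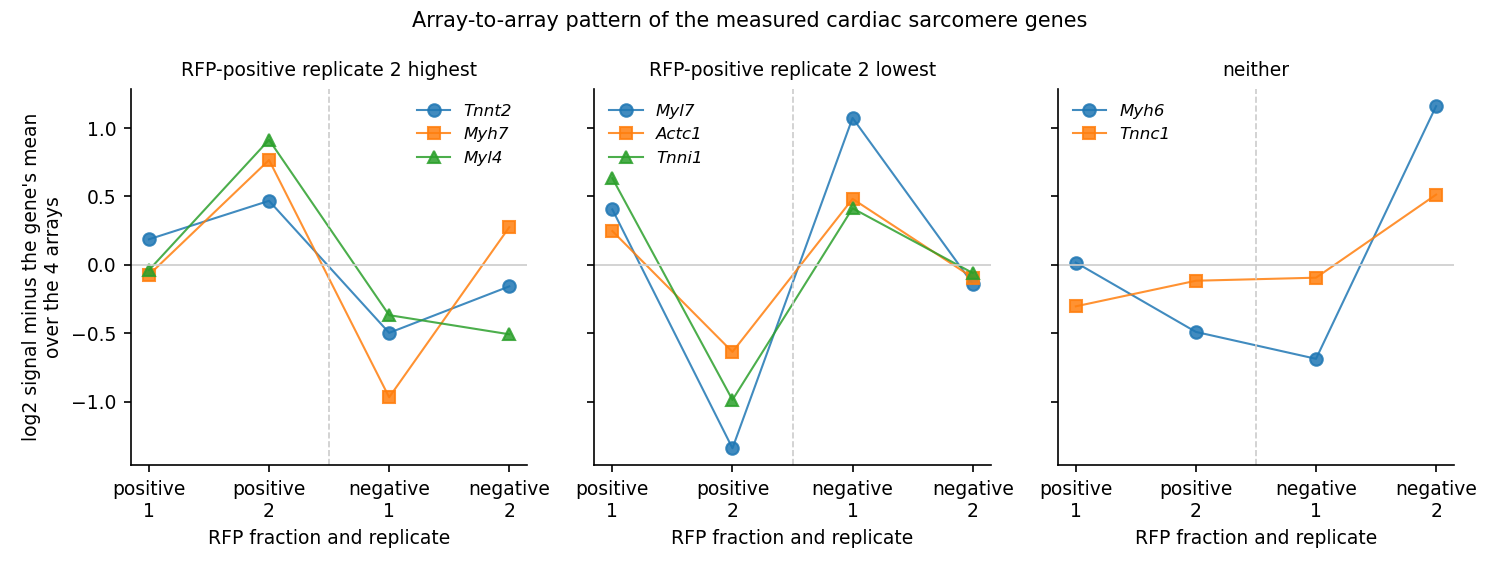
Log2 signal minus the gene's mean over the 4 arrays (vertical axis) for each RFP fraction and replicate, with lines only to guide the eye. The panels hold the genes for which RFP-positive replicate 2 was the highest array (Tnnt2, Myh7 and Myl4), the lowest (Myl7, Actc1 and Tnni1) or neither (Myh6 and Tnnc1).

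The genes nearest to the mean profile of the 8 were Dcaf12l2, Mtarc2, Dexi, Slc46a3 and Cdv3, by the root mean square distance of centred log2 values over 4 arrays, at 0.011 to 0.015. The 8 genes themselves lay between 0.29 (Tnnc1) and 0.84 (Myl7) from that profile, so that it matched none of them closely.

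Other parts of the sarcomere were read from a list of 26 further cardiac sarcomere and Z-disc genes, of which 25 had a probe, 14 were tested and 12 were measured on all arrays. Of the 14, 2 were higher and 3 lower in RFP-positive cells without overlap, beside 18.8% and 21.6% of all genes, and 0 passed an adjusted p of 0.05. The 2 higher genes, Tcap and Tmod1, passed the filter only through the fraction in which they are higher, so that their count supports no direction. The median difference was −0.19. Mybpc3, cardiac myosin-binding protein C of the thick filament, was at −2.86 and −3.68 in RFP-positive and −1.73 and −2.22 in RFP-negative cells, a difference of −1.29 (SE 0.38, limma adjusted p 0.727) that was −0.55 after normexp background correction. Its direction was thus opposite to that of Tnnt2 and Myl4. The Z-disc gene Tcap and the thin filament capping gene Tmod1 were well above background on the RFP-positive arrays alone, at −3.36 and −2.92 for Tcap and −2.83 and −2.42 for Tmod1. RFP-positive cells were higher by at least 1.96-fold for Tcap and at least 2.49-fold for Tmod1 (limma adjusted p 0.724 and 0.730). After normexp background correction the log2 differences were only 0.13 and 0.22, so these bounds hold only without that correction. For such a bound, the brighter fraction's mean was set against the dimmer fraction's own signal or the array's lowest signal well above background, whichever was higher. Tmod1 is also a protein of the red cell membrane. Blood markers went both ways, with 5 of 7 tested differences above 0 and 2 below. The 5 above 0 were Gata1, Itga2b, Alas2, Hba-a1 and Hbb-bh1, the first 2 of them without overlap. The 2 below were Spi1 and Ptprc. Gata1, the largest above 0, was at −0.89 and 0.29 in RFP-positive and −2.03 and −1.45 in RFP-negative cells. Spi1 was lower without overlap, at −3.60 and −3.89 in RFP-positive and −2.07 and −3.21 in RFP-negative cells, and Alas2 overlapped. The part of blood cells in the Tmod1 signal was not tested.

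The ventricular light chains overlapped between the fractions. Myl2 was at −2.50 and −4.07 in RFP-positive and −3.23 and −2.87 in RFP-negative cells, and Myl3 at −0.80 and −2.37 in RFP-positive and −1.20 and −0.78 in RFP-negative cells. As for Tnni1, Myl7 and Actc1, RFP-positive replicate 2 was the lowest array for both. The giant spring protein gene Ttn was well above background on the arrays numbered 2 alone, at −2.06 in the RFP-positive and −3.18 in the RFP-negative fraction. Cryab, a chaperone at the Z-disc, was at 0.39 and 0.46 in RFP-positive and 0.88 and 1.07 in RFP-negative cells, without overlap (difference −0.55, limma adjusted p 0.745).

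Genes of calcium handling, conduction and cardiac metabolism were the least measured of the heart lists, with 8 of 18 tested and 8 not well above background on any array. Ryr2, the calcium release channel of the heart, was among those on no array. Pln, an inhibitor of the calcium pump, was measured on RFP-positive replicate 2 alone (−2.89) and Nppa, the atrial natriuretic peptide gene, on RFP-negative replicate 1 alone (−3.65). Of the 8 tested, 0 were higher and 3 lower without overlap, beside 18.8% and 21.6% of all genes, with a median difference of −0.45. Cox6a2, the heart and skeletal muscle form of a cytochrome oxidase subunit, was at −3.46 and −3.83 in RFP-positive and −2.45 and −1.75 in RFP-negative cells. Every pair of its arrays was at least 2-fold apart, which held for 0.893% of all genes in that direction (difference −1.55, SE 0.34, limma adjusted p 0.654). After normexp background correction the difference was −0.55. Fabp3, the muscle fatty acid binding protein gene, was at −0.05 and 0.00 in RFP-positive and 0.20 and 0.52 in RFP-negative cells. The third of these genes, the calcium channel gene Cacna1c, was well above background on the RFP-negative arrays alone and passed the filter only through them. RFP-negative cells were higher for it by at least 1.46-fold (limma adjusted p 0.750). After normexp background correction its difference was −0.21, so that bound holds only without the correction. The connexin gene Gja5, used by atria and arteries, overlapped.

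Cardiac transcription factors, many of which act upstream of sarcomere genes, were nearly all present, with 18 of 20 tested and 16 measured on all arrays. Of the 18, 5 were higher and 2 lower without overlap, against 18.8% and 21.6% of all genes, and the median difference was 0.10. Tbx5, among the 5 higher, and Irx4, among the 2 lower, each passed the filter only through the fraction in which it is higher. Neither of them therefore supports a direction. Tbx5 was at −3.01 and −2.05 in RFP-positive and −4.12 and −3.50 in RFP-negative cells, where replicate 1 was not well above background. Its difference of 1.28 (SE 0.43, limma adjusted p 0.745) thus includes a value below the mark, and was 0.24 after normexp background correction and 0.80 without RFP-positive replicate 2. Gata6 was at 2.79 and 2.71 in RFP-positive and 2.47 and 2.28 in RFP-negative cells, also without overlap. On the lower side stood Irx4, a ventricular factor, at −3.68 and −4.71 in RFP-positive and −3.28 and −0.98 in RFP-negative cells, where the value of RFP-positive replicate 2 was not well above background. Its difference of −2.06 was −0.91 without RFP-negative replicate 2, −3.21 without RFP-negative replicate 1 and −0.80 after normexp background correction. The early mesoderm factor Mesp1 was at −0.37 and −1.22 in RFP-positive and −0.12 and 0.00 in RFP-negative cells, and its difference of −0.74 was −0.31 without RFP-positive replicate 2 and −1.16 without RFP-positive replicate 1. Nkx2-5 was at −2.56 and −3.82 in RFP-positive and −2.27 and −3.36 in RFP-negative cells, and like Myl7 was higher on the array numbered 1 in each fraction. Its difference of −0.38 turned to 0.25 without RFP-positive replicate 2 and to 0.17 without RFP-negative replicate 1. Gata4, Mef2c and Isl1 overlapped. Hand1 did not, with a difference of 0.12 that was 0.02 without RFP-positive replicate 2 and 0.21 without RFP-positive replicate 1.

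Because several of the 10 genes also serve skeletal muscle, its genes were read too. Of 17 skeletal sarcomere genes 8 were tested and 7 were on no array well above background, among them Mylpf, Ckm, Myh1, Myh2, Myh3 and Myh4. Of the 8, 1 was higher and 2 lower without overlap, beside 18.8% and 21.6% of all genes, with a median difference of 0.11. Neb, which sets thin filament length, was at −0.53 and −1.01 in RFP-positive and −1.14 and −1.89 in RFP-negative cells. Acta1, the skeletal alpha-actin, was at −2.93 and −2.28 in RFP-positive and −2.09 and −1.67 in RFP-negative cells. Tnnc2, the fast skeletal calcium sensor, is 1 of the 2 lower genes and passed the filter only through the RFP-negative arrays. There it was higher by at least 2.09-fold (limma adjusted p 0.727). After normexp background correction its difference was −0.36, so that bound holds only without the correction. Mybpc1 overlapped. Of 6 myogenic regulators, Myod1, Myog and Pax3 were measured on all arrays, the first 2 with overlap and Pax3 lower without it, while Myf5, Myf6 and Pax7 were on none. In the wider list of 10 skeletal muscle markers, 6 were tested, Acta1 and Tnnc2 were again the 2 lower without overlap, and Tnni2 overlapped.

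Smooth muscle and non-muscle counterparts of the sarcomere proteins lay mostly below 0. Of 18 tested, 9 were lower and 1 was higher without overlap in RFP-positive cells, beside 21.6% and 18.8% of all genes, and the median difference was −0.25. None passed an adjusted p of 0.05, and among those of smallest p were Cnn1, Myl12b, Myl9 and Actg2, with differences of −0.62, −0.69, −0.79 and −0.84. Without RFP-negative replicate 2 those of Myl9 and Actg2 were −0.49 and −0.47, and without RFP-positive replicate 2 that of Myl12b was −0.45. Of markers of cells that the gate could also hold, those of smooth muscle, stroma and adipocytes lay mostly in the same direction. Tested markers of endothelium and blood lay mostly above 0. All 7 smooth muscle markers are also in the list just counted, so they are not further genes. Their summed signal was 28.4 and 29.7 in RFP-positive and 36.2 and 47.3 in RFP-negative cells, in units of the array's 75th percentile. Of 6 tested, 4 were lower without overlap. For the 10 stroma and fibroblast markers the summed signal was 21.5 and 21.3 in RFP-positive and 26.0 and 41.3 in RFP-negative cells. Summed signals are weighted towards the brightest probes. In this list that was Col1a2, at 3.96 and 3.86 in RFP-positive and 4.17 and 5.02 in RFP-negative cells. Among adipocyte markers it was Fabp4, and among endothelium markers Cdh5 or Kdr. Of the 10 stroma and fibroblast markers, 6 of 8 tested were lower without overlap, and Dcn and Postn were on no array. Examples were Col1a1 and Thy1, with differences of −0.85 and −0.89. For the 8 adipocyte markers the summed signal was 20.2 and 14.7 in RFP-positive and 48.6 and 58.6 in RFP-negative cells. Of these, 8 of 8 were lower, such as Fabp4, Pparg, Cfd and Cidec at −1.58, −1.41, −1.81 and −2.54. The part of these cells in the values of Tnnc1, Actc1, Myl7 and the other sarcomere genes was not tested.

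Of 9 endothelium markers 5 were higher and 0 lower without overlap, beside 18.8% and 21.6% of all genes tested. Their differences were above 0 for 6 and below 0 for 3. The summed signals were 56.7 and 69.9 in RFP-positive and 51.1 and 50.2 in RFP-negative cells. For 3 of the 5 higher genes the nearest arrays of the fractions were close. They were at 1.78 against 1.76 for Pecam1, 3.761 against 3.755 for Cdh5 and 4.36 against 4.33 for Kdr, the receptor gene behind the sort. For Tek they were at 1.95 against 1.86 and for Flt1 at 2.68 against 2.20. Cdh5, among the 5 higher, differed by 0.53, which was 0.06 without RFP-positive replicate 2 and 0.996 without RFP-positive replicate 1. Flt1 stayed between 0.62 and 1.05 with 1 array left out. Eng overlapped and lay the other way, at −0.98, the largest difference in size of the 9. It was at 0.28 and −0.91 in RFP-positive and 1.08 and 0.26 in RFP-negative cells. Of 9 blood markers 7 were tested, with 2 higher and 1 lower without overlap, beside the same shares of all genes. The sums of the 9 were 5.97 and 4.78 in RFP-positive and 3.49 and 3.10 in RFP-negative cells. Of 8 endoderm and epithelium markers 5 were tested and 2 were lower without overlap. The sums of the 8 were 12.9 and 13.8 in RFP-positive and 11.6 and 24.2 in RFP-negative cells. Of 6 pluripotency markers 4 were tested, all 4 with a difference below 0, and 2 were lower without overlap, Pou5f1 and Dppa4. The difference of Pou5f1, −1.05, was −0.14 without RFP-positive replicate 2 and −1.96 without RFP-positive replicate 1.

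**Figure D4:**
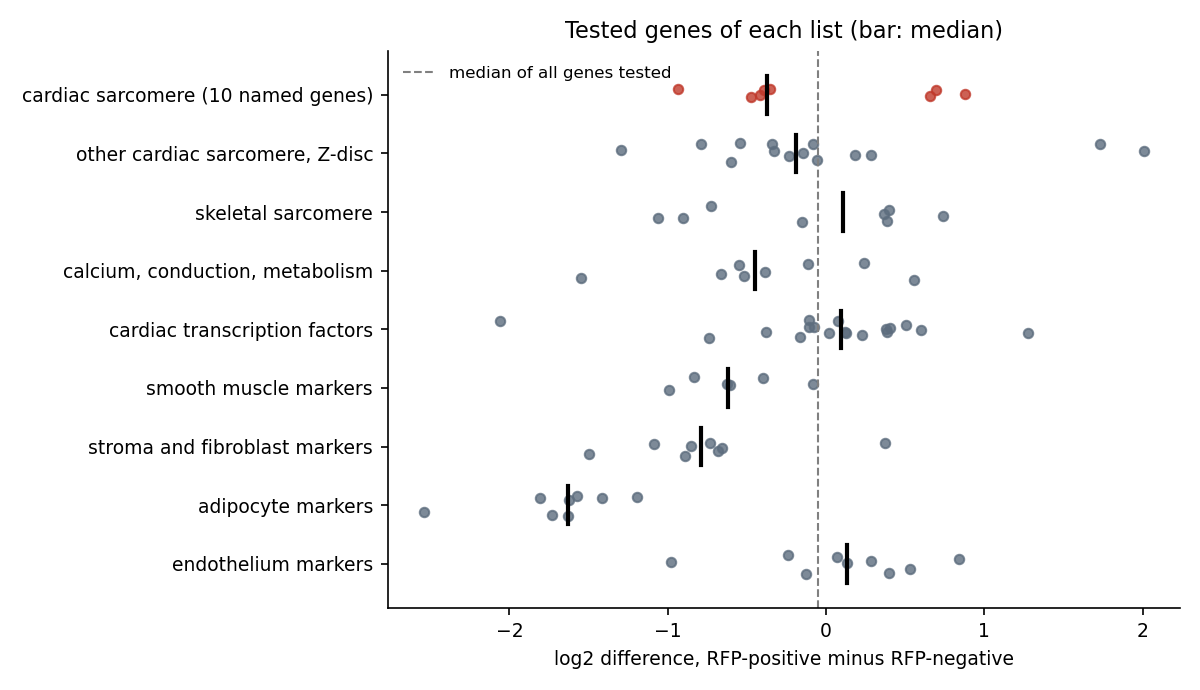
Differences (horizontal axis, log2, RFP-positive minus RFP-negative) of the tested genes of the lists drawn, 1 point per gene, with a bar at the list's median and a dashed line at the median of all genes tested, −0.05. The cardiac sarcomere points fall on both sides of 0, from −0.94 for Myl7 to 0.88 for Myl4, while the adipocyte markers lie between −2.54 and −1.20.

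Leaving out each array in turn showed how far each value rested on 1 array. Tnnt2 stayed between 0.48 and 0.82, Myl4 between 0.40 and 1.35, and Tnnc1 between −0.72 and −0.12. Myh7 ran from 0.07 to 1.31 and Myl7 from −1.81 to −0.06, without a change of sign. Tnni1, Actc1 and Myh6 each had both signs.

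**Figure D5:**
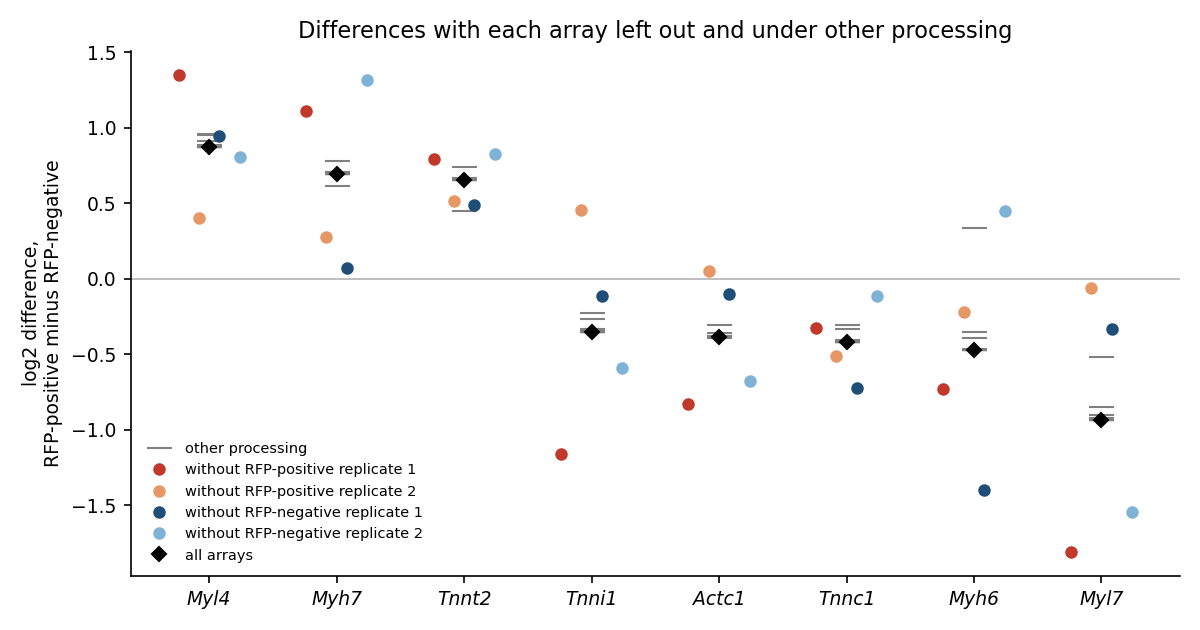
Difference between the fractions (vertical axis, log2, RFP-positive minus RFP-negative) of each gene with all arrays (diamonds), with each array left out (points) and under other processing (dashes). The points of Tnni1, Actc1 and Myh6 cross 0, while those of Tnnt2 stay between 0.48 and 0.82.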

How the data were processed

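RNA of the sorted fractions was hybridised to 4 one-colour arrays, 2 per fraction, grouped by the reporter status in the labels. The intensity values are processed signals that, per the file headers, Feature Extraction 10.10.1.1 computed after scanning. All arrays lay on 1 slide in 1 scan. The value table deposited with them is also intensity on a linear scale, each array's signals multiplied by 1 constant between 5.39 and 6.45. Its columns had medians of 133.9 and 142.3 (RFP-positive) and 136.2 and 143.9 (RFP-negative). What sets these constants is not stated in the labels or headers.

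Of 62976 spots, 3671 control spots were left out, and 115 to 153 non-uniform or population-outlier spots per array. Signals were divided by their array's 75th percentile before taking log2. Symbols came from RefSeq accessions without versions (GRCm38), for 27235 of 55681 probes, and the probe of highest mean stood for a gene. A gene was tested if it was well above background on both arrays of at least 1 fraction, 13431 genes. R 4.3.3 with limma 3.58.1 fitted the 2 fractions (lmFit and eBayes without a block), giving two-sided p-values adjusted by Benjamini-Hochberg, with 2 residual and 2.77 prior degrees of freedom. Named are the 10 genes, some heart genes set by name, and from every other list up to 4 tested genes with the lowest p. Genes given only as not measured or as examples of a list (such as Mylpf or Dcn) were chosen after their values were seen. The genes and lists were chosen with earlier results of these data known. The fit was checked on simulated data. Python 3.11.15, pandas 2.3.3 and matplotlib 3.10.9 were used.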

Additional observations from a re-analysis of the deposited data

How the results depend on the processing

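The number of arrays limits the precision, and the signal limits Tnni3, Actn2 and the second Myh6 probe, which lay below the scanner's mark for well above background on all arrays. In 15 alternatives limma called 0 genes, with 387 to 2752 genes at an unadjusted p under 0.05 (872 with all arrays), and the differences of Tnnt2, Tnnc1, Myl4, Myl7 and Myh7 kept their sign. Their lowest adjusted p over these was 0.137, for Myl4 without RFP-positive replicate 1. With the replicate number as a block, 1038 genes had an unadjusted p under 0.05 and 0 passed. The adjusted p of Tnnt2 and Myl4 in that replicate block fit was 0.639 and 0.646. The labels do not say what a number pairs, and deviations of same-numbered arrays correlated at 0.092.

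The count of genes at least 2-fold apart, 183, was 335 with no filter on dim probes, 57 with genes measured on all arrays only and 12 after normexp background correction, and 383 to 1471 with 1 array left out. The count of genes without overlap, 5418, was 8774 to 10923 with 1 array left out, where fewer arrays must be separated. Tnnc1 overlapped under 2 scalings. The median of the 8 genes ran from −0.53 to 0.17 with 1 array left out. The mean of both Myh6 probes gave 0.33, that of the Gja5 probes −0.047, and normexp gave −0.026 for Mybpc1, −0.52 for Myl7, −0.23 for Tnni1, 0.13 for Tcap and 0.22 for Tmod1. The causes were not tested. With 1 array left out, differences ran from −1.16 to 0.46 for Tnni1, −1.40 to 0.45 for Myh6, −0.83 to 0.053 for Actc1, −1.02 to 0.55 for Myl2, −1.38 to 0.19 for Myl3, −1.01 to 0.25 for Nkx2-5, −0.64 to 0.31 for Gata4, −0.031 to 0.18 for Mef2c, −0.074 to 0.11 for Isl1, −0.0069 to 1.12 for Gja5, −0.17 to 0.26 for Myod1, −0.42 to 0.11 for Myog, −0.53 to 0.090 for Ttr, −1.99 to 1.02 for Esrrb and −0.062 to 0.80 for Tnni2. The other 44 of 57 named genes of the lists kept their sign in each alternative that gave them a value, which was 14 of 15 for Tcap, Tmod1, Tnnc2, Tbx5, Irx4 and Cacna1c. For these genes too, several alternatives could not change a sign. A lone array of a fraction was assumed to vary like the other fraction's.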
